A study of Danio rerio with 12 samples.

Results

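The genes described here are mdka and mdkb, the zebrafish paralogues that encode Midkine, ptn, which encodes Pleiotrophin, and ptprz1b, which encodes a receptor-type protein tyrosine phosphatase that binds both ligands. They are 4 of the 25281 genes measured by RNA-seq in adult zebrafish ventricles, and all 4 were found by name in the table of every library. The ligand genes were picked as injury-induced and ptprz1b as a gene that is lower in foxm1 mutant hearts, so those values are given as a description with no test. By these values the first name describes mdka only, as mdkb overlapped between injured and uninjured hearts and ptn was lower in the injured ones.

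Midkine and Pleiotrophin form a family of small, secreted, heparin-binding growth factors. They are held in the extracellular matrix by heparan sulfate and chondroitin sulfate chains and signal through a set of shared receptors that includes Ptprz1, Alk, integrins, Lrp1 and syndecans. In mammals, binding of Pleiotrophin to the chondroitin sulfate-bearing Ptprz1 lowers its phosphatase activity and so raises the tyrosine phosphorylation of its substrates, and Ptprz1 is best known from glia and neural progenitors. Midkine is expressed widely in embryos, is low in most adult organs and returns in several injured tissues, including regenerating zebrafish heart, fin and retina.

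Adult fish had about 20% of the ventricle removed at the apex, and ventricles were collected at 3 days post-amputation (dpa) or without injury. The injury experiment had 1 library each of uninjured WT (AB*), uninjured dusp6 pt30a/pt30a mutant, 3 dpa WT and 3 dpa dusp6 mutant hearts. The pair of libraries of a state was treated as replicates, following the study. The foxm1 experiment had 3 libraries of WT (AB*) and 3 libraries of foxm1 mutant hearts, all at 3 dpa and labelled as experiments 2 to 4, called replicates here, without saying what libraries of an experiment share. The genotype labels of the foxm1 mutants read sa10708/sa10708, sa10708/sa10709 and sa10708/sa10710 for replicates 2, 3 and 4. The study's methods name only sa10708/sa10708 for the foxm1 mutants of the RNA-seq, and the 3 libraries are treated here as 1 genotype. The labels give an age of 6 months to 1 year and the study's methods one of 6 to 18 months. Each condition was a pool of at least 8 hearts, so no p-value rests on the variation among individual fish. Only the foxm1 comparison had replicate pools of the same state and, by the study's methods, the same genotype. In the injury comparison the 2 libraries of a state differ in genotype, so its spread includes that difference. In the dusp6 comparison the spread rests on how the genotype difference varies between the 2 states. Both mutations are germline and so present in every cell of the fish. The 7 dpa samples were not analysed here.

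The injury libraries held 54229254 to 67236702 reads in genes and the foxm1 libraries 17654534 to 21245883. The heart label was checked with 5 cardiomyocyte markers, which do not tell the chambers apart and whose levels summed to between 25423 and 59226 transcripts per 1000000 (TPM) in all 10 libraries, led by myl7 and cmlc1, which encode myosin light chains. The atrial myosin gene myh6 was at 12.9 and 24.3 TPM in uninjured and 167 to 648 in injured libraries, and elnb, an elastin gene of the outflow tract, at 1.30 to 5.31 in the injury and 14.3 to 47.1 in the foxm1 experiment. Neither targeted transcript was lower in its mutant, at 10.3 to 12.2 counts per 1000000 reads (CPM) for foxm1 in WT and 12.5 to 14.6 in foxm1 mutant hearts, and for dusp6 at 93.8 in WT against 201 in dusp6 mutant uninjured hearts and 235 against 338 at 3 dpa. A gene with altered sequence can keep its transcript, and the mutations themselves were not read here. WT replicates 2 and 3 stood apart from the other 4 foxm1 libraries in fkbp5, a glucocorticoid-induced gene, at 1189 and 1529 CPM against 111 to 187. In bulk tissue, fewer cells of a type and less RNA per cell cannot be told apart.

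mdka (ENSDARG00000036036) lies at chr7:39166460-39178198 of GRCz11 on the forward strand, with 16 annotated exons in 5 transcripts. mdkb (ENSDARG00000020708) lies at chr25:7872135-7880878 on the forward strand, with 4 exons in 1 transcript. On chromosome 4, ptn (ENSDARG00000102340) lies at chr4:1301436-1360495 on the reverse strand with 7 exons, and ptprz1b (ENSDARG00000020871) at chr4:4834085-4926061 on the forward strand with 36 exons in 4 transcripts. The gene bodies of ptprz1b and ptn are 3.47 megabases apart. That of ptprz1b is 0.882 megabases from foxm1, so the gene of this group that differs most in foxm1 mutants is on the chromosome that carries the mutation.

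The 4 genes were at very different levels, compared here as TPM, which accounts for exon length. mdka was the most abundant in every library and ptn the least. Of 25281 genes, mdka ranked 96 to 248 in the 8 libraries of injured hearts and 1923 and 2828 in the uninjured ones. ptprz1b ranked 6102 to 14499, mdkb 4987 to 11999 and ptn 13270 to 16697. The read counts differed accordingly, at 2297 to 153166 reads per library for mdka and 15 to 147 for ptn, so the values of ptn carry the widest counting error.

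**Figure D1:**
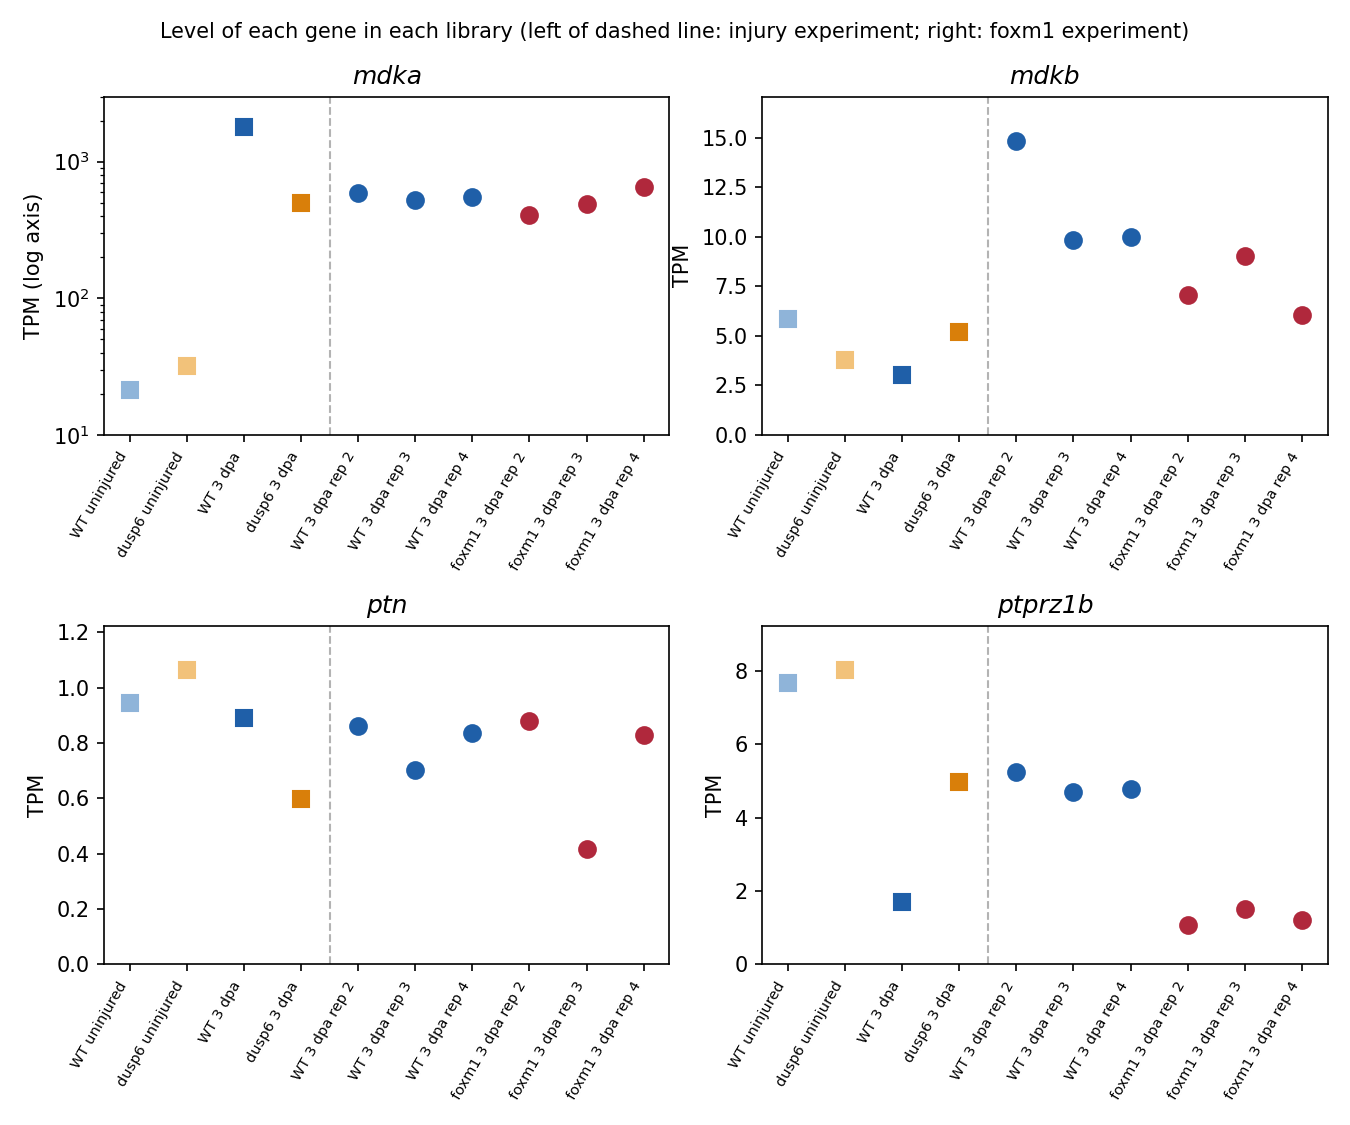
TPM of mdka (log axis), mdkb, ptn and ptprz1b (linear axes from 0) in each of the 10 libraries, 1 point per library, with the injury experiment to the left of the dashed line and the foxm1 experiment to the right. mdka is at 21.4 and 31.9 TPM in uninjured hearts and at 411 to 1794 in all injured hearts, and ptprz1b is at 4.71 to 5.25 in WT and 1.07 to 1.52 in foxm1 mutant hearts of the foxm1 experiment.

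Among the ligands, mdka was the one with higher levels after injury. In uninjured hearts it was at 21.4 TPM in WT and 31.9 in dusp6 mutants, and at 3 dpa at 1794 in WT and 502 in dusp6 mutants. Both injured libraries were far above both uninjured ones, as 28.0% of all genes tested were without overlap, and the injured WT library was the highest of all 10. On the count scale its log2 fold change was 4.99 (standard error 0.696, n = 2 per state), and 61 of the 20408 genes tested had a larger one. Without the WT library of 3 dpa the log2 fold change was 3.99. Within each genotype, the ratio of 3 dpa to uninjured CPM was 60.7 in WT (95% interval 58.2 to 63.3, counting error only) and 13.1 in dusp6 mutant hearts (12.6 to 13.6), each from 1 library per state.

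The second Midkine gene did not follow its paralogue. mdkb was at 5.88 TPM in uninjured WT, 3.76 in uninjured dusp6 mutant, 3.03 in WT 3 dpa and 5.18 in dusp6 mutant 3 dpa hearts. The states overlapped, with a log2 fold change of −0.55 (standard error 0.489), and the genotypes went opposite ways. The ratio of 3 dpa to uninjured CPM was 0.366 in WT (0.291 to 0.458) and 1.16 in dusp6 mutant hearts (0.939 to 1.43).

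Pleiotrophin transcripts were scarce in both states. ptn was at 0.944 TPM in uninjured WT, 1.06 in uninjured dusp6 mutant, 0.889 in WT 3 dpa and 0.599 in dusp6 mutant 3 dpa hearts. In CPM, the scale of the fold change, it was at 2.28, 2.62, 1.38 and 1.37 in the same order. In WT the states were thus farther apart in CPM than in TPM. Both injured libraries were below both uninjured ones, as they were for 27.7% of all genes tested, and the log2 fold change was −0.83 (standard error 0.358). Between 23.9% and 38.0% of its reads in these 4 libraries lay in introns, against 6.85% to 8.45% over all genes. Its fold change on exon reads was −0.83 as well.

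ptprz1b, which the choice of genes did not take from this comparison, was at 7.66 TPM in uninjured WT, 8.02 in uninjured dusp6 mutant, 1.69 in WT 3 dpa and 4.97 in dusp6 mutant 3 dpa hearts. Both injured libraries were lower than both uninjured ones, as for 27.7% of all genes tested, and the WT library was the lower of the pair. The log2 fold change of −1.52 (standard error 0.551, 95% interval −2.93 to −0.10) did not pass the test (adjusted p = 0.217, edgeR's quasi-likelihood test with Benjamini-Hochberg adjustment, called at 0.01 where the log2 fold change also reached 0.59 in either direction). A fit of all 10 libraries that shared 1 estimate of the spread gave −1.74. Its groups hold 1 library each in the injury experiment, so its spread comes from the foxm1 experiment and its p-value is not given. The WT ratio of 3 dpa to uninjured CPM was 0.173 (0.153 to 0.196), which is 5.77-fold lower, and the dusp6 mutant ratio was 0.517 (0.474 to 0.563), which is 1.93-fold lower. Without the WT library of 3 dpa the log2 fold change was −0.92 and without the dusp6 mutant library of 3 dpa it was −2.54 (adjusted p = 0.0114), so these libraries set its size.

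The quasi-likelihood test of edgeR called 0 of 20408 genes in this comparison (0%), which is the background for the call on ptprz1b. At an unadjusted p under 0.05 it had 2768 genes higher (13.6%) and 1507 lower (7.38%), with ptprz1b among the latter. DESeq2 called 1524 genes and edgeR's likelihood ratio test 1276, and neither called ptprz1b.

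**Figure D2:**
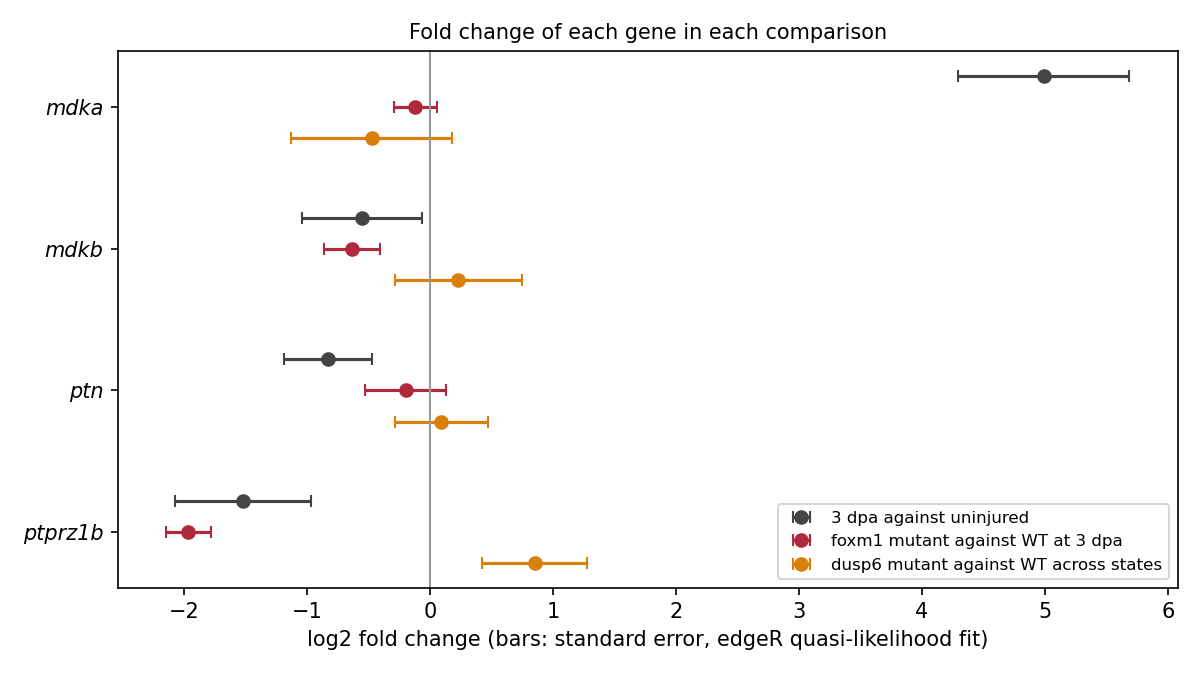
Log2 fold changes of the 4 genes on the count scale (points) with standard errors (bars) at 3 dpa against uninjured (2 libraries per state), in foxm1 mutant against WT hearts at 3 dpa (3 libraries per genotype) and in dusp6 mutant against WT hearts across states (2 libraries per genotype). The 2 values farthest from 0 are those of mdka after injury, at 4.99, and of ptprz1b in foxm1 mutants, at −1.96.

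Markers of several cell types were higher in the injured libraries, as mdka was. Of 5 epicardial markers, all 5 were positive at 3 dpa (median log2 fold change 2.98), and of 6 fibroblast and perivascular markers all 6 were positive with a median of 2.54, beside −0.0046 over all genes. The summed fibroblast and perivascular level was 93.8 and 114 TPM in uninjured hearts and 2825 and 826 in the WT and dusp6 mutant hearts at 3 dpa, led by col1a1a and col1a2, which encode type I collagen. The epicardial sum went from 51.4 TPM in both uninjured libraries to 589 and 267, led by aldh1a2, a retinoic acid synthesis enzyme, and the epicardial transcription factor gene tcf21. No marker of these lists was at 0 in any library. The 3 erythrocyte markers, led by the hemoglobin gene hbaa1, were all positive with a median of 2.09 and summed to 9472 and 6781 TPM in uninjured WT and dusp6 mutant hearts and to 62028 and 29292 at 3 dpa. Both atrial markers were positive with a median of 2.25, and 5 of 6 macrophage markers with a median of 1.72. The part of any of these cells in the mdka values was not tested.

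In the same libraries all 5 cardiomyocyte markers were negative, with a median log2 fold change of −0.93. Their sum was lowest in the WT library of 3 dpa, at 25423 TPM, where ptprz1b was also lowest, and was 42083 in the dusp6 mutant library of 3 dpa. The 8 markers of Schwann cells and glia, led by plp1b and mpz, which encode myelin proteins, summed to 4.71 and 4.77 TPM in uninjured hearts and to 4.98 and 6.31 at 3 dpa. Their markers went both ways, 4 positive and 4 negative. In WT hearts plp1b was at 2.36 TPM uninjured and 1.44 at 3 dpa, and s100b at 0.018 and 1.37. In dusp6 mutant hearts plp1b was at 3.16 and 4.04 TPM, the other way, and s100b at 0.018 and 0.075. The part of cardiomyocytes or glia in the values of ptprz1b was not tested.

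**Figure D3:**
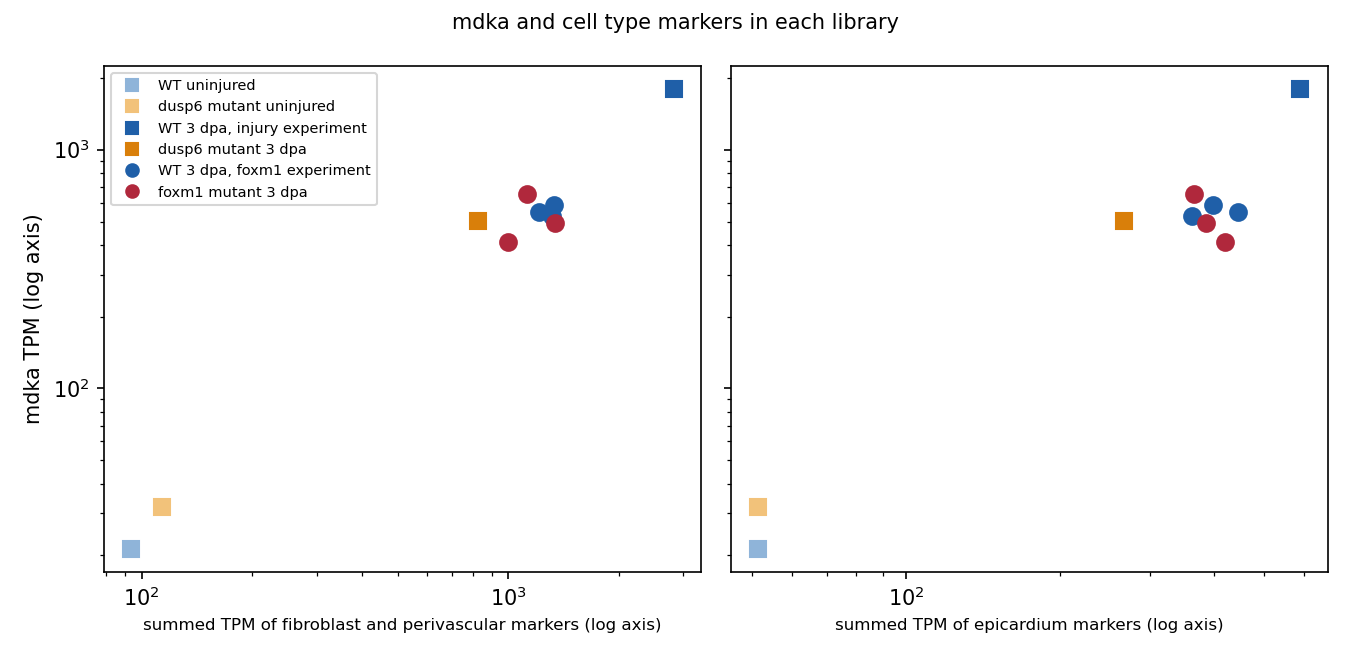
TPM of mdka against the summed TPM of 6 fibroblast and perivascular markers (left) and 5 epicardial markers (right) in each of the 10 libraries, all axes logarithmic. The uninjured libraries sit at the lower left, the WT 3 dpa library of the injury experiment, at 1794 TPM of mdka, at the upper right, and the other 7 injured libraries between them.

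ptprz1b was the gene of the group farthest below WT in foxm1 mutant hearts, which is the value it was chosen by. In the WT hearts of the foxm1 experiment it was at 5.25, 4.71 and 4.79 TPM in replicates 2, 3 and 4, and in their foxm1 mutant counterparts at 1.07, 1.52 and 1.22. All mutant libraries were well below all WT libraries, and 4.38% of all genes tested were without overlap in this direction. The means were 4.92 ± 0.293 TPM in WT and 1.27 ± 0.229 in foxm1 mutant hearts (SD, n = 3), with a log2 fold change of −1.96 (standard error 0.180). Of the 17618 genes tested, 27 had a lower value. In each of the 15 alternative fits it stayed between −2.11 and −1.83, and without WT replicates 2 and 3 it was −1.89.

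All 3 foxm1 mutant libraries were below all 5 WT libraries analysed here in TPM of ptprz1b, but 1 WT library came close. In CPM, normalized within each experiment, WT 3 dpa of the injury experiment had 4.51, just below the 4.53 of foxm1 mutant replicate 3. The WT 3 dpa library of the injury experiment had 1.69 TPM, against 1.52 in the highest foxm1 mutant library, while WT replicates 2 to 4 at the same time point had 4.71 to 5.25. The dusp6 mutant library at 3 dpa, with 4.97 TPM, was within the range of those replicates. The lowest WT library had 300 reads of ptprz1b, more than the 248 to 270 of WT replicates 2 to 4, and foxm1 mutants had 55 to 83. It was also the library with the largest share of ptprz1b reads in introns, at 15.7% against 3.64% to 8.75% in the other 9. The experiments differ in library set and depth, so a difference between them and one between hearts cannot be told apart.

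In order of mean TPM, ptprz1b was highest in uninjured hearts (7.84 ± 0.256, SD, n = 2), then in WT hearts of the foxm1 experiment (4.92 ± 0.293, n = 3), then in the 3 dpa hearts of the injury experiment (3.33 ± 2.32, n = 2) and lowest in foxm1 mutants (1.27 ± 0.229, n = 3). The range of the 3 dpa hearts of the injury experiment, 1.69 to 4.97 TPM, overlapped that of the WT hearts and ended above that of the mutants.

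Neither Midkine gene nor ptn was called in foxm1 mutants. Levels of mdka were 586, 529 and 550 TPM in the WT libraries (replicates 2, 3 and 4) against 411, 493 and 649 in the mutant ones. The mutant range enclosed that of WT, with a log2 fold change of −0.12 (95% interval −0.52 to 0.28, adjusted p = 0.999, edgeR's quasi-likelihood test). The sign turned, to 0.029, without foxm1 mutant replicate 2. The means were 555 ± 28.9 TPM in WT and 518 ± 121 in foxm1 mutant hearts (SD, n = 3), so these neighbors in the order of levels did not differ beyond their spread. The 3 dpa hearts of the injury experiment were higher on average but overlapped both (1148 ± 913, n = 2), and the uninjured hearts were lowest (26.6 ± 7.43, n = 2) with no overlap.

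mdkb was lower in every foxm1 mutant library but did not pass the test. WT replicates 2, 3 and 4 had 14.9, 9.86 and 10.02 TPM, and the mutant libraries of those numbers had 7.08, 9.05 and 6.04. Such a separation of the genotypes was found for 4.38% of the genes tested in this direction and 4.85% in the other. The log2 fold change of −0.64 (95% interval −1.16 to −0.11) had an unadjusted p of 0.0236 and an adjusted p of 0.770 by edgeR's quasi-likelihood test. WT replicate 2, the highest, weighed on it, since without that library the log2 fold change was −0.42. The adjusted p ran from 0.349 to 1.00 over the alternatives.

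Mean mdkb levels were 11.6 ± 2.84 TPM in WT and 7.39 ± 1.53 in foxm1 mutant hearts (SD, n = 3). Those in the injury experiment were lower, at 4.82 ± 1.497 in uninjured and 4.10 ± 1.52 in 3 dpa hearts (n = 2), which overlapped each other. The 3.03 and 5.18 TPM of the injury experiment's 3 dpa hearts were below all 6 libraries of the foxm1 experiment.

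For ptn, the WT libraries had 0.861, 0.703 and 0.835 TPM (replicates 2, 3 and 4) and the mutant libraries 0.879, 0.417 and 0.827. The mutant libraries enclosed the WT ones, with foxm1 mutant replicate 3 as the lowest of the 10 libraries. These values rest on 15 to 30 reads each. The log2 fold change of −0.20 (95% interval −0.96 to 0.56, adjusted p = 0.999, edgeR's quasi-likelihood test) turned to 0.041 without foxm1 mutant replicate 3. The means of 1.00 ± 0.0843 TPM in uninjured hearts (SD, n = 2), 0.800 ± 0.0847 in WT (n = 3), 0.744 ± 0.205 in the 3 dpa hearts of the injury experiment (n = 2) and 0.708 ± 0.253 in foxm1 mutants (n = 3) overlapped in range between all neighbors but the first 2.

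Over all 17618 genes of this comparison, edgeR's quasi-likelihood test made 2 calls, both lower (0.0114%), and 0 among the 3 ligand genes. With the experiment number as a block it made 1 call. At an unadjusted p under 0.05 it had 485 genes higher (2.75%) and 508 lower (2.88%). DESeq2 called 117 genes and edgeR's likelihood ratio test 123, with none of the 3 ligand genes among them.

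The summed cell type markers overlapped between WT and foxm1 mutant hearts for 11 of the 12 lists. Schwann cell and glial markers, of interest for ptprz1b, summed to 3.77 to 6.12 TPM in WT and 4.00 to 4.96 in foxm1 mutant hearts. Fibroblast and perivascular markers summed to 1211 to 1329 against 999 to 1343, and epicardial markers to 361 to 445 against 365 to 420. The 2 neutrophil markers, lyz and mpx, which encode lysozyme and myeloperoxidase, summed to 14.7 to 21.5 TPM in WT and 31.9 to 169.6 in foxm1 mutant hearts, without overlap and with neither marker at 0. Only lyz was apart, at 11.1 to 15.7 against 26.5 to 163 TPM, as 4.85% of all genes tested were in this direction. mpx overlapped, at 3.60 to 6.78 in WT and 4.71 to 6.55 in foxm1 mutant hearts. All 4 smooth muscle and outflow tract markers were negative in foxm1 mutants (median log2 fold change −0.23), and of these elnb was at 145 to 194 CPM in WT and 55.8 to 94.1 in foxm1 mutant hearts. The ranges of acta2, tagln and myh11a overlapped between the genotypes. Of 5 neuronal markers tested, 4 were negative with a median of −0.44, and of 3 lymphocyte markers tested all 3 were positive with a median of 0.31. The part of these cells in the values of mdkb and ptprz1b was not tested.

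The balance of the paralogues was higher in every injured than in every uninjured library and overlapped between WT and foxm1 mutants. The ratio of mdka to mdkb TPM was 3.63 and 8.46 in uninjured WT and dusp6 mutant hearts and 593 and 97.02 at 3 dpa. It was 39.4, 53.6 and 54.9 in WT replicates 2, 3 and 4 and 58.0, 54.5 and 107 in the foxm1 mutant replicates. Across the replicates the mean log2 ratio was 5.61 ± 0.267 in WT and 6.12 ± 0.541 in foxm1 mutant hearts (SD, n = 3). The difference of 0.52 had p = 0.2 in an exact two-sided permutation test, where 3 against 3 libraries cannot go below 0.1.

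**Figure D4:**
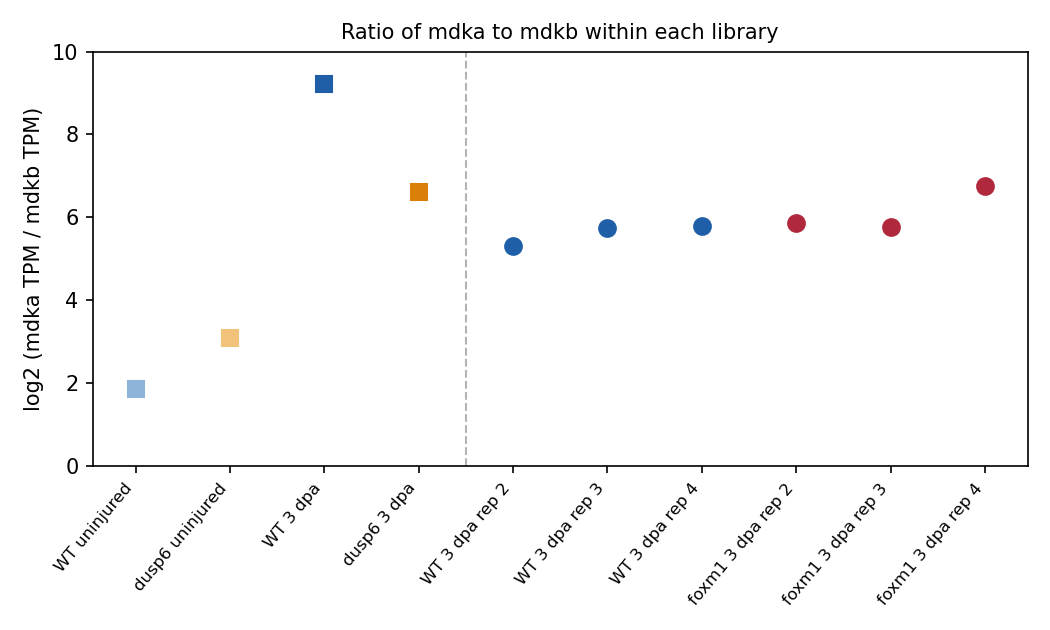
Log2 ratio of mdka to mdkb TPM in each of the 10 libraries, 1 point per library, with the injury experiment to the left of the dashed line and the foxm1 experiment to the right. Uninjured hearts are at 1.86 and 3.08, injured hearts at 5.30 to 9.21, and the WT 3 dpa library of the injury experiment is the highest.

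dusp6 encodes a phosphatase that inactivates ERK. In its mutants, the ratios to WT of mdka, mdkb and ptprz1b were farther from 1 in injured than in uninjured hearts. ptprz1b was close before injury, at 8.02 TPM in the dusp6 mutant and 7.66 in WT hearts, and at 3 dpa was at 4.97 against 1.69, a 3.14-fold higher CPM. Across both states its log2 fold change was 0.85 (95% interval −0.26 to 1.96, adjusted p = 0.669, edgeR's quasi-likelihood test called at 0.05). The fit of all 10 libraries, with its spread from the foxm1 experiment, gave 0.89. mdka had a 1.55-fold higher CPM in dusp6 mutant than in WT hearts before injury and a 2.98-fold lower one at 3 dpa. Its log2 fold change across states was −0.47 (95% interval −2.17 to 1.22, adjusted p = 0.862, edgeR).

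mdkb went the other way, 1.51-fold lower in the uninjured dusp6 mutant library and 2.10-fold higher in that of 3 dpa, with −0.59 and 1.07 on the log2 scale of CPM. Over both states it had a log2 fold change of 0.23 (95% interval −1.11 to 1.58, adjusted p = 0.919, edgeR). ptn differed by 0.20 and −0.015 on the log2 scale of CPM in the uninjured and 3 dpa hearts, with a fitted log2 fold change of 0.09 (95% interval −0.90 to 1.08, adjusted p = 0.961, edgeR). With 1 library of each genotype in a state, whether the genotype difference changed with injury was not tested. None of the 4 genes was called, and neither was any of the 20408 genes tested (0%), with 799 genes higher (3.92%) and 810 lower (3.97%) at an unadjusted p under 0.05 (7.88% together), 293 calls by DESeq2 and 380 by edgeR's likelihood ratio test. The difference between states was smaller in size in dusp6 mutants for mdka, mdkb and ptprz1b. For ptn the ratios of 3 dpa to uninjured CPM overlapped within counting error. They were 0.607 in WT (95% interval 0.461 to 0.795) and 0.523 in dusp6 mutant hearts (0.393 to 0.693). The log2 ratio of 3 dpa to uninjured CPM of ptn was −0.72 in WT and −0.93 in dusp6 mutant hearts. The fibroblast and perivascular and the cardiomyocyte marker sums also differed less between states in dusp6 mutants. At 3 dpa they were 826 TPM against 2825 in WT and 42083 TPM against 25423. The endothelial, glial and neutrophil marker sums differed more in dusp6 mutants. Neutrophil markers went from 6.71 to 65.5 TPM there and from 3.55 to 7.33 in WT. The part of these cells in the values was not tested.

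The reads of mdka spanned exon junctions less often in the 2 libraries of 3 dpa of the injury experiment. Of exon reads, 26.2% crossed a junction in the dusp6 mutant 3 dpa library and 35.0% in the WT 3 dpa library, against 39.1% to 41.9% in the other 8. Over all genes the share was 41.9% to 45.9%. For ptprz1b, with its 36 annotated exons, the share was 58.5% to 77.6%. Intron reads were 0.0435% to 0.602% of those of mdka and 3.53% to 9.89% of those of mdkb.

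As with nearly all genes, none of the receptors and co-receptors of these ligands was called in any comparison (0%, 0.0114% and 0% of all genes at injury, in foxm1 and in dusp6 mutants). A list of 33 genes of receptors, syndecans, glypicans, integrins, Lrp1 proteins and proteoglycans had 27 genes in the tables. At 3 dpa against uninjured 15 were positive, where 49.6% of all genes tested were, and 12 negative, with a median log2 fold change of 0.30. Of the list, 0 were called, and 8 were higher and 1 lower at an unadjusted p under 0.05, beside 13.6% and 7.38% of all genes. The largest values were 2.20 for vcana (standard error 0.874, adjusted p = 0.245), which encodes the matrix proteoglycan Versican, and 2.19 for itga4 (adjusted p = 0.126), an integrin subunit. vcana was at 1.54 and 1.58 CPM in uninjured WT and dusp6 mutant hearts and at 12.4 and 1.98 at 3 dpa, so the dusp6 mutant library at 3 dpa stayed near the uninjured ones. itga4 was at 2.23 and 2.42 CPM and at 15.5 and 5.83, with both injured libraries higher, as for 28.0% of all genes tested.

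In foxm1 mutants 23 genes of this list were tested, with 11 positive (49.9% of all genes were), 12 negative, a median of −0.0014 and 0 called or past an unadjusted p of 0.05. The values farthest from 0 were 0.64 for lrp1bb, a member of the LDL receptor family, and −0.51 for itga6b, an integrin subunit (adjusted p = 0.999 for both, edgeR). lrp1bb was barely detected, at a mean of 0.052 TPM. In dusp6 mutants 9 of 27 were positive (49.3% of all genes were) and 18 negative, with a median of −0.19, 0 called and 1 lower at an unadjusted p under 0.05. The 2 Versican genes led, with −1.33 for vcana and −1.28 for vcanb (adjusted p = 0.678 and 0.530, edgeR).

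Binding partners and substrates of Ptprz1 included tnc, which had the largest log2 fold change at injury of the pathway genes. Of 25 genes, 21 were in the tables and 20 were tested at injury, where 12 were positive and 8 negative with a median log2 fold change of 0.24. None was called, and 5 were higher and 1 lower at an unadjusted p under 0.05, beside 13.6% and 7.38% of all genes. tnc, which encodes the matrix protein Tenascin-C, had 3.76 (standard error 0.655, adjusted p = 0.0845), from 1.31 and 3.86 CPM in uninjured to 46.1 and 23.7 in 3 dpa hearts of WT and dusp6 mutants. chl1a, which encodes a cell adhesion molecule of the L1 family, had 2.19 (standard error 0.292, adjusted p = 0.0674), from 8.55 and 7.53 to 44.8 and 28.6 CPM. Both genes were higher in both injured libraries, as were 28.0% of all genes tested, and neither passed the threshold of 0.01.

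Of the same list, 17 genes were tested in foxm1 mutants, with 11 positive, 6 negative, a median of 0.03, 0 called and 1 higher at an unadjusted p under 0.05. That gene was tnr, which encodes Tenascin-R, at 0.83 (adjusted p = 0.598, edgeR), with 2.72 to 3.37 CPM in WT and 4.69 to 6.60 in foxm1 mutant hearts. The adhesion gene ncam1b, at a mean of only 0.125 TPM, followed at 0.79 (adjusted p = 0.999, edgeR). In dusp6 mutants 8 of 20 were positive and 12 negative with a median of −0.11, 0 called and 1 lower at an unadjusted p under 0.05. The values farthest from 0 were −1.10 for ncam1b, at a mean of only 0.0575 TPM, and −1.05 for ncam1a (adjusted p = 0.647 and 0.617, edgeR).

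Genes of heparan sulfate synthesis and editing, the chains on which these ligands are held, were mixed. Of 36 genes, 34 were in the tables and 32 were tested at injury, with 18 positive, 14 negative, a median of 0.11 and 0 called. At an unadjusted p under 0.05, 5 were higher and 1 lower, beside 13.6% and 7.38% of all genes. sulf2b, which encodes a sulfatase that removes 6-O-sulfate groups, had 2.14 (standard error 0.347, adjusted p = 0.0784), from 19.2 and 15.5 CPM in uninjured to 98.0 and 54.6 in 3 dpa hearts. hpse, which encodes heparanase, had 2.00 (adjusted p = 0.118). In foxm1 mutants 11 of 29 were positive and 18 negative with a median of −0.05, and hs3st3b1a, a 3-O-sulfotransferase gene, and sulf2a had 0.97 and −0.66 (adjusted p = 0.764 and 0.890, edgeR). The value of sulf2a turned to 0.14, and that of itga6b to 0.16, without WT replicates 2 and 3. In dusp6 mutants 11 of 32 were positive and 21 negative with a median of −0.15, and sulf2a had −2.47 (adjusted p = 0.485), from 6.40 and 5.18 CPM in WT to 0.66 and 1.58 in dusp6 mutant hearts. xylt2, a xylosyltransferase gene, had −0.77 (adjusted p = 0.672). None of the genes was called in either mutant, with 1 higher at an unadjusted p under 0.05 in foxm1 mutants and 1 in each direction in dusp6 mutants.

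Chondroitin sulfate genes had the highest median at injury of the lists, at 0.42 beside −0.0046 over all genes. Of 24 genes, 19 were in the tables and 16 were tested, with 13 positive, 3 negative and 0 called. At an unadjusted p under 0.05, 5 were higher and 0 lower, beside 13.6% and 7.38% of all genes. The sulfotransferase gene chst15 had 2.70 (standard error 0.563, adjusted p = 0.105), from 2.81 and 6.92 CPM in uninjured to 41.4 and 21.7 in 3 dpa hearts, and the sulfotransferase gene chst11 had 1.92 (adjusted p = 0.174). Both were higher in both injured libraries, as were 28.0% of all genes tested. In foxm1 mutants 7 of 15 were positive and 8 negative with a median of −0.04, 0 called and 1 lower at an unadjusted p under 0.05, and chst3a and chst7, sulfotransferase genes, had −0.63 each (adjusted p = 0.949 and 0.819, edgeR). In dusp6 mutants 5 of 16 were positive and 11 negative with a median of −0.18 and 0 called or past an unadjusted p of 0.05, and chst3a had −1.18 and csgalnact1b 1.12 (adjusted p = 0.666 and 0.639, edgeR).

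The other receptor-type tyrosine phosphatases were close to 0 in foxm1 mutants, where 0.0114% of all genes were called. Of 30 genes without ptprz1b, 21 were in the tables and 20 were tested, and their log2 fold changes ran from −0.41 to 0.28 with a median of −0.03, 9 positive, 11 negative and 0 called or past an unadjusted p of 0.05. The lowest of them was ptprz1a, the paralogue of ptprz1b, at −0.41 (standard error 0.473, adjusted p = 0.999, edgeR), followed by ptprfa at −0.32. ptprz1a was at 0.0101 to 0.243 TPM over the 10 libraries and rests on 6 to 22 reads per library in the foxm1 experiment, a depth at which a difference of the size of that of ptprz1b would be poorly measured. At 3 dpa against uninjured 11 of 20 were positive and 9 negative with a median of 0.25 and 0 called. At an unadjusted p under 0.05, 5 were higher and 1 lower, beside 13.6% and 7.38% of all genes. The largest values were 1.62 for ptprr and 1.56 for ptprnb (adjusted p = 0.170 and 0.177, edgeR), at means of only 0.531 and 0.136 TPM. In dusp6 mutants the median was 0.03, with 11 positive, 9 negative, 0 called and 2 higher at an unadjusted p under 0.05. ptprq had 2.23 (adjusted p = 0.546, edgeR), from 2.71 and 3.52 CPM in WT to 25.1 and 8.41 in dusp6 mutant hearts, and ptprr had −0.69.

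Around ptprz1b, 39 genes lie within 500 kilobases, of which 29 were tested in foxm1 mutants. Of these, 0 were called, 16 were positive and 13 negative, and the median was 0.06. The lowest was −0.67 for zgc:194209, against −1.96 for ptprz1b. The nearest gene after it, ndufa5, a respiratory complex I subunit gene 4.35 kilobases away, had −0.13, at 72.8 to 76.1 CPM in WT and 66.3 to 69.6 in foxm1 mutant hearts. coa6, a cytochrome c oxidase assembly gene that shares 533 bases with ptprz1b on the other strand, had −0.03. strip2, 45.0 kilobases after it, had 1.01 (adjusted p = 0.672, edgeR), at 0.927 to 1.64 CPM in WT and 2.14 to 2.96 in foxm1 mutant hearts. slc13a4, an anion transporter gene that ends 1.94 kilobases before ptprz1b, had too few reads to be tested, at 0.116 to 0.272 CPM in WT and up to 0.0545 in foxm1 mutant hearts.

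More of these neighbors had an unadjusted p under 0.05 than in the genome at large, 9 of 29 (31.0%) against 993 of 17618 (5.64%), 7 of them positive and 2 negative. The highest, SNAP91 (1 of many), had 3.02 (adjusted p = 0.362, edgeR), from 0.116 to 0.350 CPM in WT to 0.790 to 2.73 in foxm1 mutant hearts, with 239 reads over all 10 libraries. This gene, strip2 and zgc:194209 were chosen after their values were seen. Because all mutant hearts carry the chromosome segment of the mutant foxm1 allele, a difference that goes with foxm1 and one that goes with linked sequence cannot be told apart.

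**Figure D5:**
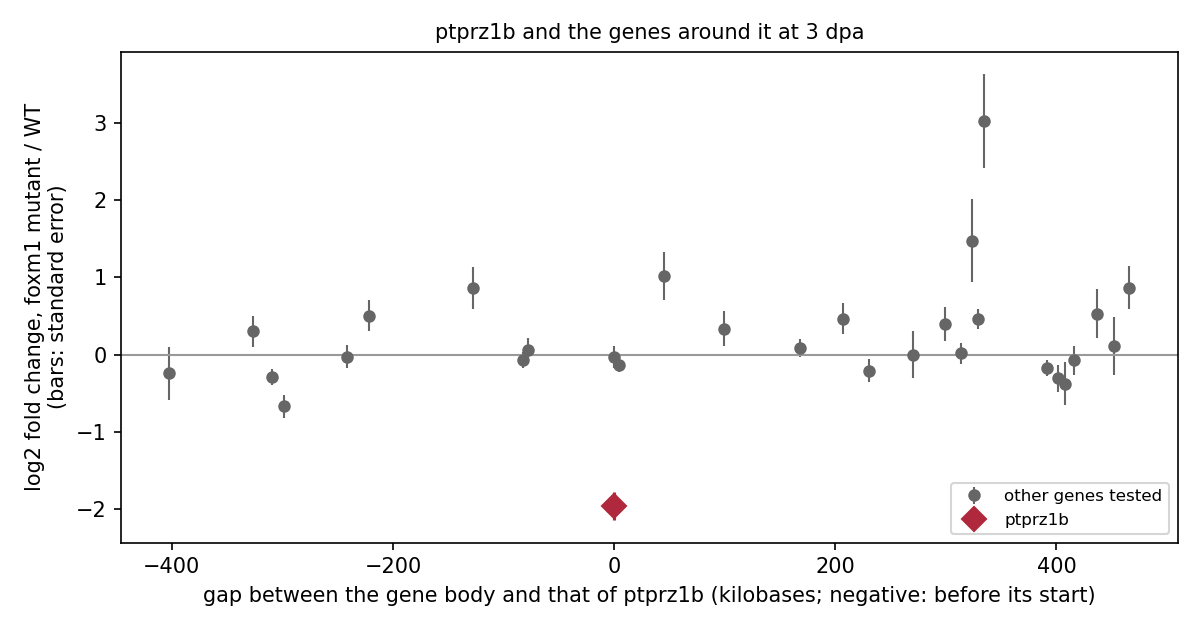
Log2 fold changes of foxm1 mutant against WT hearts at 3 dpa (3 libraries per genotype, bars are standard errors) for ptprz1b and the 29 tested genes within 500 kilobases, by the gap between gene bodies. ptprz1b is at −1.96, its neighbors run from −0.67 to 3.02, and coa6 and ndufa5, the closest, lie near 0.

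The genes whose levels followed each member most closely were different for each. Likeness was Pearson's r of log2 CPM over the 10 libraries after centring within each experiment, among 20049 genes, and is a description of libraries that share experiment and depth. For mdka they were arpc4l, which encodes a subunit of the actin-nucleating Arp2/3 complex (r = 0.998), dzip1, which acts in cilium formation (0.996), and clic3, a chloride intracellular channel gene (0.996). Within the 6 foxm1 libraries r was lower, at 0.925, 0.795 and 0.655. For ptprz1b they were rsad1 (0.957), gpat3, a glycerol-3-phosphate acyltransferase gene (0.943), and gnpat, which acts in ether lipid synthesis (0.941), with 0.941, 0.954 and 0.984 within the foxm1 libraries.

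mdkb was most like GRIK3, which encodes a kainate receptor subunit (0.935), ehbp1l1a (0.933) and myom1a, which encodes myomesin of the sarcomere M-band (0.928). GRIK3 itself was very low, at 0.279 to 1.65 CPM and 0 to 0.0796 TPM over the 10 libraries. ptn was most like fbxo30b, an F-box gene (0.974), efr3bb (0.955) and cox20, a cytochrome c oxidase assembly gene (0.953). Among the 4 genes themselves, mdkb and ptprz1b were the most alike over the 10 libraries (r = 0.85). The r of mdka was −0.54 with mdkb, −0.66 with ptn and −0.57 with ptprz1b. These values include the injury contrast by which the ligand genes were picked. They were not split by experiment, so they do not tell how the genes ran within the foxm1 libraries. Without centring, 1 of the 3 genes named for mdka and 0 of those named for each of the others were among its 3 most alike.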

How the data were processed

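Ventricles of uninjured and 3 dpa WT, dusp6 mutant and foxm1 mutant zebrafish were profiled by RNA-seq, with 10 libraries analysed here. Mapping to GRCz11 and counting per gene were done by the authors in CLC Genomics Workbench. The deposited table of each library holds read counts (all, uniquely mapped, exon, intron and junction reads), RPKM and TPM, the latter scaled by the authors to 1000000 per library. RPKM was not used for any result. The strand setting of the counting is not given in the sources used here. The authors' deposited comparisons hold fold changes and p-values and were not used. The 7 dpa samples were not used here.

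All-read gene counts were filtered with filterByExpr (minimum count 10, minimum total 15), which kept 20408 genes in the injury experiment and 17618 in the foxm1 experiment, normalized with TMM and tested with edgeR (version 4.0.16, R version 4.3.3; glmQLFit and glmQLFTest, the quasi-likelihood F test), with Benjamini-Hochberg adjustment over all genes tested. Genes were called at an adjusted p of at most 0.01 (injury) or 0.05 (foxm1, dusp6) where the log2 fold change also reached 0.59 in either direction. Injury state was the only term of the injury comparison, and the dusp6 comparison had it as a second term. CPM are on the TMM scale and log2 CPM used a prior count of 2. Intervals of ratios between single libraries are 95% exact binomial intervals of the counts (Clopper-Pearson) and cover counting error only. The fit was tested on simulated data before use.

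Alternatives were DESeq2 (version 1.42.0), edgeR's likelihood ratio test, RLE size factors, no filter, uniquely mapped or exon reads, all 10 libraries in 1 fit, a genotype or replicate term and leaving out libraries. Leaving out WT replicates 2 and 3 together was chosen after seeing the data. The 4 genes, the gene lists and the marker lists were chosen with earlier results of these data known. The text names all 4 genes, the 2 genes with the largest log2 fold change in size of each pathway list in each comparison (none was called), the 3 genes most like each member (clone-based names skipped), the nearest neighbors of ptprz1b and the 2 most abundant markers of the cell types described. The markers elnb and s100b are named in addition and are not among the 2 most abundant of their lists.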

Additional observations from a re-analysis of the deposited data

Results flagged for a closer look

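These contrasts had opposite signs between genotypes or states, with 1 library of each, and the difference between the contrasts was not tested. The log2 ratio of dusp6 mutant to WT CPM of mdka was 0.63 in uninjured hearts and −1.58 at 3 dpa. For mdkb the same ratio was −0.59 in uninjured hearts and 1.07 at 3 dpa, and its log2 ratio of 3 dpa to uninjured CPM was −1.45 in WT and 0.21 in dusp6 mutant hearts. For ptn, dusp6 mutant to WT was 0.20 in uninjured hearts and −0.015 at 3 dpa, from 79 to 147 reads per library. Differences of this size are not detectable at this depth in either state, so the opposite signs of ptn carry no weight.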

How the results depend on the processing

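At 3 dpa against uninjured, the count of genes called was 0 by the quasi-likelihood test, 1524 by DESeq2, 1276 by the likelihood ratio test and 2713 with all 10 libraries in 1 fit. Without 1 library it ran from 0 to 173, the latter without the dusp6 mutant library of 3 dpa. The log2 fold change of ptprz1b kept its sign in all 12 alternatives and passed the threshold in 1, the fit of all 10 libraries (−1.74). That fit has 1 library per group in the injury experiment, so its spread comes from the foxm1 experiment. Without 1 library the log2 fold change of ptprz1b ran from −2.54 to −0.92 and that of mdka from 3.99 to 5.59. That of mdkb ran from −1.16 to −0.12 and that of ptn from −0.93 to −0.73.

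In foxm1 mutants, 2 genes were called, against 117 by DESeq2, 123 by the likelihood ratio test, 0 on exon reads, 0 without WT replicates 2 and 3 and 0 to 142 without 1 library, with 142 without WT replicate 4 and 26 without foxm1 mutant replicate 4. With the replicate number as a block, 1 gene was called. Same-numbered libraries had correlations of 0.0862, −0.0362 and 0.126 between their deviations from the group means, not all over 0.1. Those of WT and foxm1 mutant libraries with different numbers ran from −0.130 to 0.0859. The main fit did not treat same-numbered libraries as pairs, although the labels give them a shared experiment number. Among the members the sign turned for mdka, to 0.029 without foxm1 mutant replicate 2 (range without 1 library −0.32 to 0.029), and for ptn, to 0.041 without foxm1 mutant replicate 3 (−0.40 to 0.041). mdkb ran from −0.78 to −0.42 and ptprz1b from −2.11 to −1.83 without 1 library. Without WT replicates 2 and 3, itga6b had 0.16 and sulf2a 0.14.

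In dusp6 mutants, 0 genes were called, against 293 by DESeq2, 380 by the likelihood ratio test and 2 with no filter. With all 10 libraries in 1 fit, 659 were called and ptprz1b had 0.89. That fit has 1 library per group in the injury experiment, with its spread from the foxm1 experiment. Its p-value for ptprz1b is therefore not given, and its calls do not rest on replicates of the dusp6 mutants. ptn had −0.032 on exon reads. Leaving out 1 state gave −1.58 to 0.63 for mdka, −0.59 to 1.07 for mdkb, −0.015 to 0.20 for ptn and 0.07 to 1.65 for ptprz1b. For 30 results of other named genes, 308 of 336 alternative values kept direction and side of the threshold, 26 passed it and 2 reversed. Where a count moved between tests, the cause was not tested. Depth limits ptn and ptprz1a, at 15 to 30 and 6 to 22 reads per library in the foxm1 experiment, and other genes as low.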
